A study of Mus musculus with 36 samples.

Results

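The cytochrome P450 genes of families 1, 3 and 4 were followed through the H3K9me3 profiles of mouse liver. Members were the ChIP-seq bins that the deposited annotation assigned to a gene with a symbol of these families (Cyp1, Cyp3 or Cyp4, then a subfamily letter and a number), whatever the bin's values. They came to 411 distinct bins of 414426 over 6 deposited comparisons. Of 43 RefSeq genes and pseudogenes with such symbols, 35 had at least 1 bin, including all 32 coding genes, and 30 had bins in all 6 comparisons.

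Livers were taken from male and female offspring of dams fed regular chow (control) or a Western-style diet (maternal obesity, MO) from 4 weeks before mating through pregnancy and lactation. Offspring were studied at 3 weeks of age, before weaning, and at 8 weeks, after 5 weeks on regular chow. The 8 groups (control females, control males, MO females and MO males at each age) had 4 ChIP libraries each, 32 in all, beside 4 input libraries. All offspring came from a Reg3g-floxed colony (Reg3g-fl/+ or Reg3g-fl/fl) on C57BL/6J, so the floxed allele was common to every group. The labels did not say whether litter mates were shared between libraries, and p-values measured the spread between these libraries.

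Each comparison gave, for 1 bin of up to 501 bases per peak, a log2 change, the mean signal in CPM (read counts scaled to library size), and the p-value and false discovery rate (FDR) of an exact test between the 4 libraries of each group. How the bin of a peak was chosen is not given in the sources used here, and the p-values would be too small if it was picked for its own p-value. Values per library were not analysed here, so changes are given with the standard error (SE) implied by the change and its p-value. Age changes are positive where H3K9me3 was higher at 8 weeks, and MO changes where it was higher with MO. Between 102145 and 159357 bins were listed per comparison. The tables held no expression values, so the tissue label could not be set against marker genes. In bulk liver, a change of the mark within one cell type and a change in the share of cell types cannot be told apart.

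Cytochrome P450 enzymes are heme monooxygenases of the endoplasmic reticulum. Family 1 oxidises planar aromatic compounds and is induced through the aryl hydrocarbon receptor. Family 3 metabolises drugs, steroids and bile acids and is induced through the xenobiotic receptors PXR and CAR. Family 4 hydroxylates the ends of fatty acids and eicosanoids, with several Cyp4a genes induced through PPARα. In adult mouse liver, Cyp3a41a, Cyp3a41b and Cyp3a44 are expressed mainly in females and Cyp4a12a mainly in males, under the sex-dependent pattern of growth hormone secretion. H3K9me3 is the histone mark of constitutive heterochromatin, found over repeats and silenced gene clusters.

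The Cyp3a cluster spans 768 kb of chromosome 5 (mm10) with 8 coding genes, from Cyp3a57 to Cyp3a59. The Cyp3a genes, with Cyp3a13 elsewhere on the chromosome, held the largest number of member bins, 57 of 130 in the age comparison of females and 65 of 158 in that of males. The Cyp4a cluster spans 541 kb of chromosome 4 with 10 coding genes, Cyp4x1 and Cyp4b1 included. The Cyp4f cluster spans 495 kb of chromosome 17 with 8 coding genes. Cyp1a1 and Cyp1a2 lie within 26.9 kb on chromosome 9.

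The stretches below show the bins on which the age comparison turned. Each is the middle 300 bases of the bin on the plus strand of GRCm38.p6 (mm10), read from RefSeq's genome, with bases outside soft-masked repeats in capitals. The first Cyp3a41a stretch lost H3K9me3 with age in females, the second gained it in both sexes (a call lost in both with the trend in GC content and signal taken off), the Cyp3a25 stretch had the largest loss of the members, and the Cyp4a30b stretch was gained in males.
Cyp3a41a chr5:145679635-145679934: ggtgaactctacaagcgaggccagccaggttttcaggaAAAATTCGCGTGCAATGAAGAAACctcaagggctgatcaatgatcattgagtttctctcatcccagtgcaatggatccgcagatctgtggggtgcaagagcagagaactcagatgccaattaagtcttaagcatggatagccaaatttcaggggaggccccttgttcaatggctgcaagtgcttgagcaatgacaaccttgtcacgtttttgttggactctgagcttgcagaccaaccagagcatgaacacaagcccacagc
Cyp3a41a chr5:145686978-145687277: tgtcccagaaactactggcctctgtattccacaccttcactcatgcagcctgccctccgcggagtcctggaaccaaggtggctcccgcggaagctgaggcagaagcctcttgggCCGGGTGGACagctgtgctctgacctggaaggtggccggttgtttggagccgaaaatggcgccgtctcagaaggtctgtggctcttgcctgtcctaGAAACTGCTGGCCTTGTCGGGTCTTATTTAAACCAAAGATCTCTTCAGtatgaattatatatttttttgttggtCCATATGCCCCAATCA
Cyp3a25 chr5:145944134-145944433: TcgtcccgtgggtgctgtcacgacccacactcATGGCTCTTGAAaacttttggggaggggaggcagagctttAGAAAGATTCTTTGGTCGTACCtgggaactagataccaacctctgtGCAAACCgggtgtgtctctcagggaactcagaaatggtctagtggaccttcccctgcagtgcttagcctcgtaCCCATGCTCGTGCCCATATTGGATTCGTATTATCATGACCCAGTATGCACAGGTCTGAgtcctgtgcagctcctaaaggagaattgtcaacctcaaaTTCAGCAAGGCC
Cyp4a30b chr4:115443466-115443765: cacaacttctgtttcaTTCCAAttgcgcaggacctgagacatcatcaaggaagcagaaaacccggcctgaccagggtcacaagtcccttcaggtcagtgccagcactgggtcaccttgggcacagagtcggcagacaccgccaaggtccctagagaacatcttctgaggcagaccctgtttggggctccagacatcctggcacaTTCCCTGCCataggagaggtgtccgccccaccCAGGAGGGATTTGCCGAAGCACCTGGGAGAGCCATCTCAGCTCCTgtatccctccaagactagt

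These 4 bins were mostly repeat, with 92.2%, 59.9%, 54.9% and 88.0% of their bases soft-masked, against a median of 12.8% over all bins of the female age comparison. The shown stretches had between 5 and 10 CpG dinucleotides. Neither Cyp3a41a bin lay in a GENCODE gene.

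Another pair of male-gained bins shared sequence. The bin 31.7 kb upstream of Cyp3a41a and the bin 44.8 kb upstream of Cyp3a11 had the longest identical run of any 2 non-overlapping bins called with age, 67 bases on the same strand, shown in capitals below with the rest in lower case.
Cyp3a41a chr5:145751978-145752277: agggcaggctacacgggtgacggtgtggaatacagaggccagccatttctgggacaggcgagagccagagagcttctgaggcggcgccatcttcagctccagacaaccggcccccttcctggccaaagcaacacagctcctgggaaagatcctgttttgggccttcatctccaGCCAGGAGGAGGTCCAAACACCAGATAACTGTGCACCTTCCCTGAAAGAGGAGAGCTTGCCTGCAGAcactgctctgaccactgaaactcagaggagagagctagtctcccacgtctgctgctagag
Cyp3a11 chr5:145924937-145925236: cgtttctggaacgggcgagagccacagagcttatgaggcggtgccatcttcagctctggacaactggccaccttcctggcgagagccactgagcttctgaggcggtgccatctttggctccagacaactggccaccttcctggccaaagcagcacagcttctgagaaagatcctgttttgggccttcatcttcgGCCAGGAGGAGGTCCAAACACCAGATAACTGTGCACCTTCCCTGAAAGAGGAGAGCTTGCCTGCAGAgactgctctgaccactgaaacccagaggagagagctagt

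The run itself held 0 CpG. The Cyp3a bin 20.1 kb upstream of Cyp3a59 shared 39 identical bases with this Cyp3a41a bin and 33 with this Cyp3a11 bin, and had the opposite change in males.

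The age comparison asked how H3K9me3 differed between 3 and 8 weeks, a span that includes sexual maturation. In control females, 7 of 130 member bins were called at FDR under 0.05, 6 lower at 8 weeks and 1 higher, in 5 genes. Over all bins of that comparison 2.72% were called, 1.49% higher and 1.23% lower. All members are autosomal. Over autosomal bins alone 2.08% were called in females, 928 higher and 1455 lower, while 874 of the 902 calls on X were higher. On chromosome 5, which holds the Cyp3a genes, 172 of 8763 bins were called, 65 higher and 107 lower. In control males, 11 of 158 member bins were called, 9 higher and 2 lower, in 10 genes. Over all male bins 4.41% were called, 2.42% higher and 1.99% lower, and on chromosome 5 there were 277 bins higher and 217 lower of 11409. The median change over members was -0.03 in females, where it was also -0.03 over all bins, and 0.11 in males, where it was -0.05 over all bins. The age change varied with signal over all bins. With the median of bins of like GC content and signal taken off, the male member median turned to -0.04 (76 of 158 positive, from 88) and the female one was -0.10, against 0 over all bins. The adjustment was also recomputed over bins above the median signal (6.29 CPM in females). This left out the female losses at Cyp3a57, Cyp3a41b, Cyp3a25 and 1 Cyp3a41a bin, whose signals were 5.47 to 6.03 CPM. Of the 6 female calls then made, 4 were higher, where 81.3% of all called bins, X included, were higher. No log2 change was altered by this setting, so no bin changed direction.

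**Figure D1:**
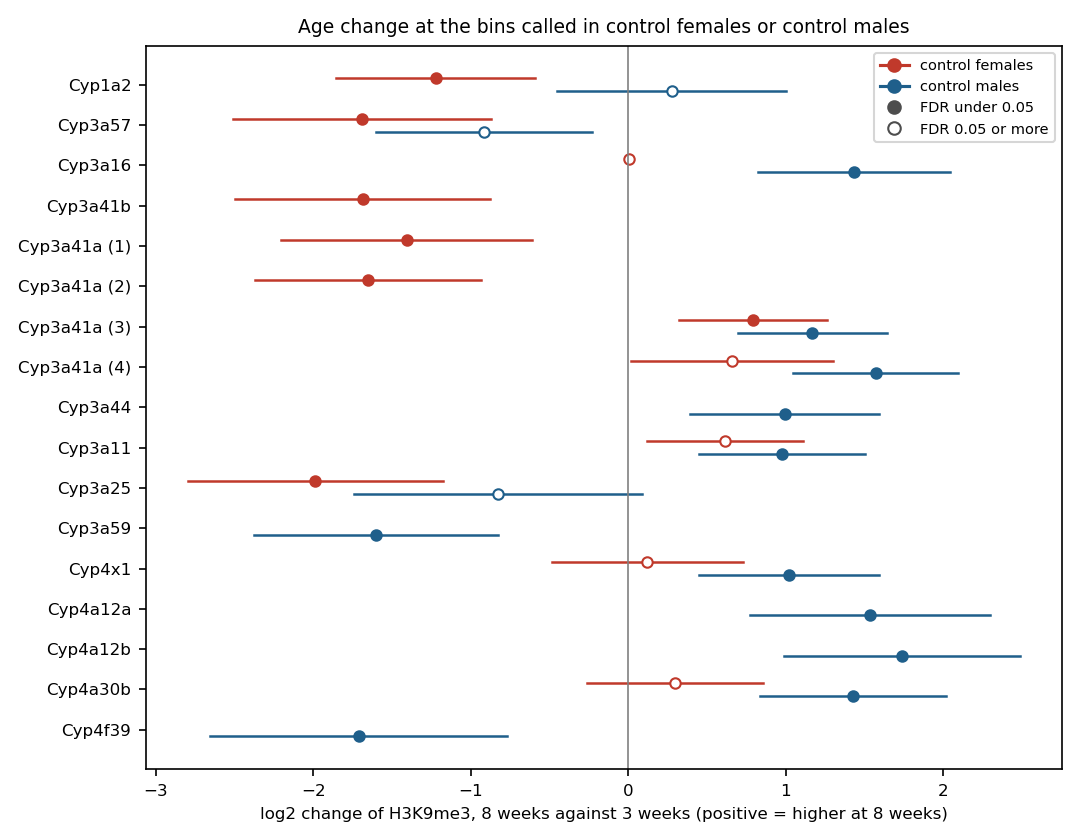
Log2 change of H3K9me3 from 3 to 8 weeks (horizontal axis) at each member bin called in control females (red) or control males (blue), with approximate 95% intervals and filled points at FDR under 0.05; a sex without a bin overlapping by at least 50% has no point, and numbers in parentheses order the Cyp3a41a bins along the chromosome. Of the 7 female calls, 5 are losses near Cyp3a genes, and the Cyp3a41a bin marked (3) is filled in both sexes.

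Of the 6 female losses, 5 lay in or beside the Cyp3a cluster, outside its coding genes. The largest was at Cyp3a25, an adult hepatic form, where a bin at chr5:145944034-145944534 fell by 1.99 ± 0.41 (SE) on the log2 scale (FDR 0.000676, signal 6.03 CPM). The deposited annotation put it 47.1 kb from a transcript start, while the gene on the minus strand starts farther away, at 146009618. A bin 22.4 kb upstream of Cyp3a57, chr5:145322356-145322856, fell by 1.69 ± 0.42 (FDR 0.00684). Near Cyp3a41b the bin chr5:145637938-145638438, 53.2 kb upstream and within the RefSeq pseudogene Cyp3a63-ps, also fell by 1.69 ± 0.41 (FDR 0.00656). These 3 bins had similar signals, from 5.47 to 6.03 CPM, and none held a 75-base window found elsewhere in the genome.

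The 3 called female bins near Cyp3a41a, a female-predominant form, lay close together downstream of the gene and did not move together. The bin at chr5:145675483-145675983 fell by 1.41 ± 0.41 (FDR 0.0326) and the bin at chr5:145679535-145680035 fell by 1.65 ± 0.37 (FDR 0.00184). The third, chr5:145686878-145687378, rose by 0.79 ± 0.24 (FDR 0.0447), and 6842 bp separated it from the second. With the trend in GC content and signal taken off, this gain was 0.41 and missed the threshold. Its signal of 18.4 CPM was far above the 5.68 and 7.07 CPM of the bins that fell.

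The sixth female loss was the one called bin of a gene body. At Cyp1a2, the main hepatic family 1 enzyme, the bin chr9:57677257-57677718 in exon 7 of 7 fell by 1.22 ± 0.32 (FDR 0.0146, signal 8.82 CPM). It lay in the top decile of bins by signal, where 1223 bins were called higher and 7 lower in females, this bin among the 7. The promoter bin of Cyp1a2 in the same livers had a change of 0.31 ± 0.36 (FDR 0.804).

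In males, 5 of the 9 gains were near Cyp3a genes. The strongest was the Cyp3a41a bin chr5:145751787-145752277, which rose by 1.57 ± 0.27 (FDR 5.65e-06, signal 13.8 CPM). The bin at chr5:145686852-145687352, the male counterpart of the gained female bin, rose by 1.17 ± 0.24 (FDR 0.000431, signal 20.5 CPM). Cyp3a16, a form of the perinatal liver, had a gained bin in intron 10, chr5:145443277-145443777, at 1.43 ± 0.31 (FDR 0.000901). The bin chr5:145841451-145841861, assigned to the female-predominant Cyp3a44, rose by 0.99 ± 0.31 (FDR 0.0417). It lay between genes, 35.6 kb upstream of Cyp3a44 and nearer to the end of Cyp3a11 at 145854426. A bin upstream of Cyp3a11, a major form of adult liver, rose by 0.98 ± 0.27 (FDR 0.0166). One male Cyp3a bin fell, 20.1 kb upstream of Cyp3a59, by 1.6 ± 0.39 (FDR 0.00534). Thus 5 of 6 called Cyp3a bins were higher in males and 1 of 6 in females. These splits depended on the setting used. With the trend in GC content and signal taken off, 1 of 3 called Cyp3a bins was higher in males and 0 of 2 in females. Of all bins called in that setting, 66.1% in males and 57.9% in females were higher. The male gains at chr5:145686852-145687352 (0.66, adjusted p = 0.129 from the shifted change and its SE), Cyp3a16 (0.89, adjusted p = 0.109), Cyp3a44 (0.65, adjusted p = 0.273) and Cyp3a11 (0.63, adjusted p = 0.208) then missed the threshold. Above the median signal, 5 of 6 were higher in males and 3 of 4 in females, beside 84.9% and 81.3% of all calls there. That setting leaves out the female losses of lower signal.

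**Figure D2:**
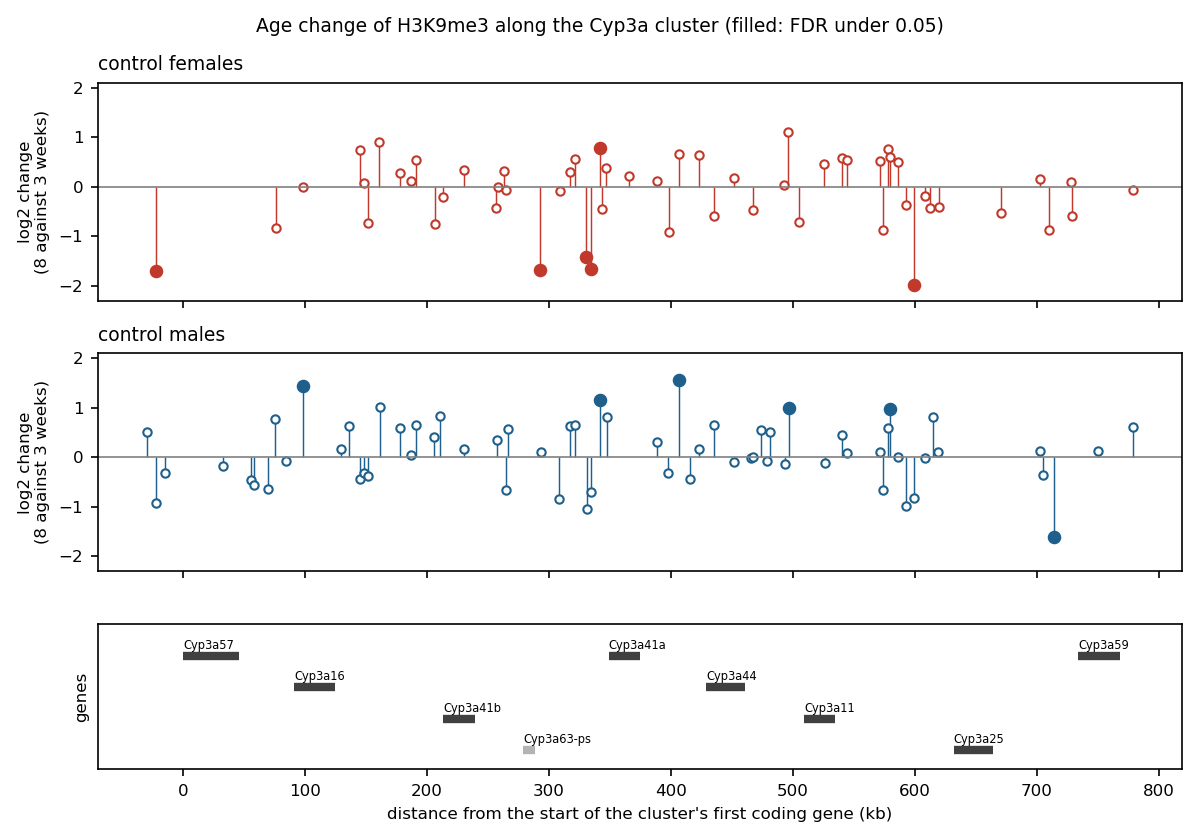
Log2 change of H3K9me3 from 3 to 8 weeks at each bin of the Cyp3a cluster (vertical axes) by distance from the first coding gene in kb, in control females (top) and males (middle), with filled points at FDR under 0.05 and gene extents below (grey for a pseudogene). Called bins lie mostly between genes, and higher and lower bins are interspersed along the cluster in both sexes.

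The 3 called Cyp4a bins, of 23 listed in males, were gained in males, where 4.41% of all bins were called. The bin chr4:115360575-115361075 had the largest gain, 1.74 ± 0.38 (FDR 0.00118). It was assigned to Cyp4a12b, whose start site was 50.5 kb away, while the bin itself lay in an intron of the pseudogene Cyp4a30-ps. Near Cyp4a12a, the male-predominant fatty acid hydroxylase, the bin chr4:115337096-115337443 rose by 1.53 ± 0.39 (FDR 0.00765), and 44.5% of its 75-base windows occurred elsewhere in the genome. The Cyp4a30b bin chr4:115443366-115443866, 8.74 kb upstream of the gene, rose by 1.43 ± 0.30 (FDR 0.000599). Outside the Cyp4a genes, a bin 35.6 kb upstream of Cyp4x1 rose by 1.02 ± 0.29 (FDR 0.0245). In females, 0 of 17 Cyp4a bins passed the exact test at FDR under 0.05 and 2 had an unadjusted p under 0.05 (17.5% of all female bins and 21.8% of all male bins did), although 13 of the 17 had positive changes (18 of 23 in males), or 10 and 15 with the trend taken off. Of the 3 bins gained in males, only the Cyp4a30b bin had a female bin overlapping by at least 50%. The female change there was 0.30 ± 0.29 (FDR 0.742), and the other loci could not be compared between sexes.

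**Figure D3:**
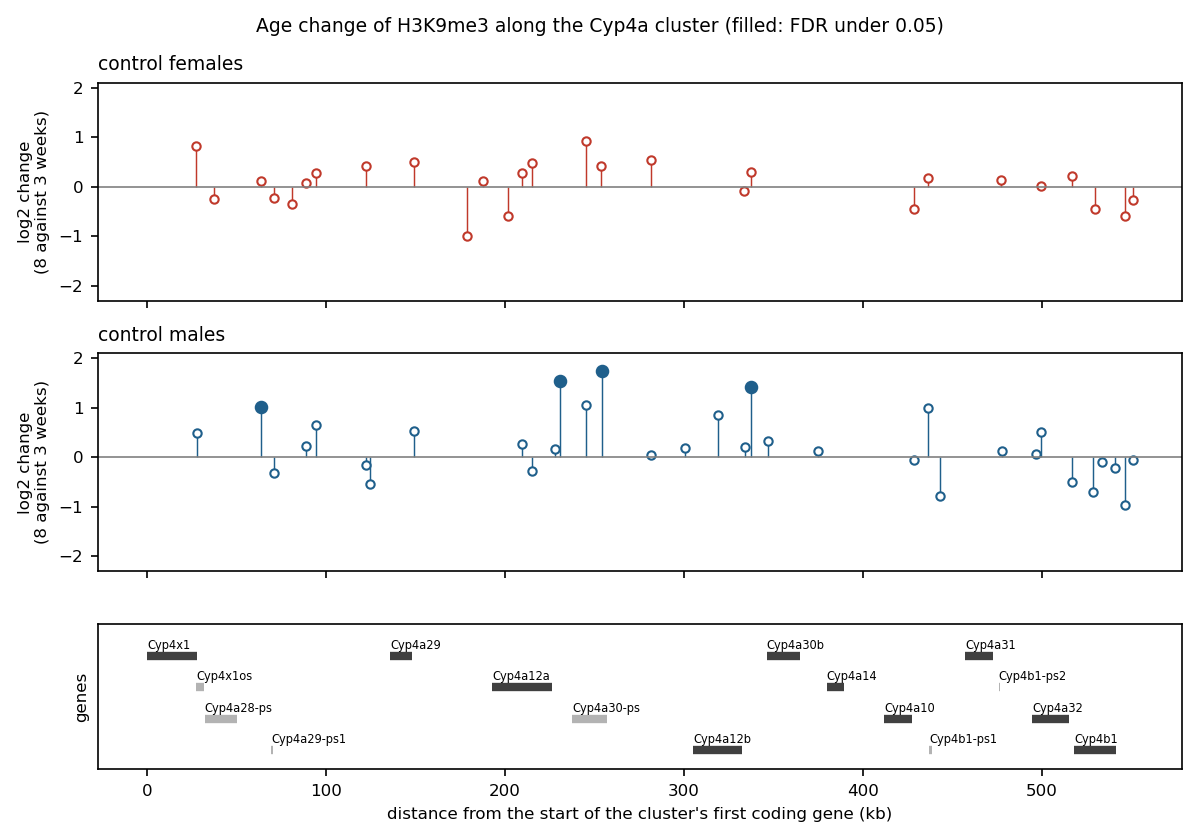
Log2 change of H3K9me3 from 3 to 8 weeks at each bin of the Cyp4a cluster by distance from the first coding gene in kb, in control females (top) and males (middle), with filled points at FDR under 0.05 and gene extents below (grey for pseudogenes and the antisense gene). The 4 filled male points, at Cyp4x1, Cyp4a12a, Cyp4a12b and Cyp4a30b, are all gains, and no female point is filled.

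The Cyp4f genes, which hydroxylate leukotrienes and long-chain fatty acids, had 1 called bin. At Cyp4f39 the bin chr17:32482095-32482595 in exon 7 of 14 fell by 1.71 ± 0.48 in males (FDR 0.0204), at a low signal of 3.39 CPM. Cyp4f bins had negative changes in 24 of 34 cases in females and 24 of 46 in males, against 51.9% and 52.4% of all bins. With the trend taken off, the counts were 21 and 22, and the male median turned from -0.12 to 0.06. Cyp1b1, an extrahepatic enzyme that hydroxylates estradiol, had 0 called bins of 7 in each sex by the exact test, with 0 and 1 at an unadjusted p under 0.05. Its bin nearest the threshold, at the promoter in males, had a change of -1.36 ± 0.44 (FDR 0.0609). Cyp1a1, the aryl hydrocarbon receptor target, had 3 bins in each sex, all in promoters, with changes from -0.53 to 0.34 in females and from -0.52 to 1.00 in males and none called.

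The members just past and just short of the threshold were close in value. In females, the gained Cyp3a41a bin was the last one inside at FDR 0.0447, and bins at Cyp3a11 (0.77, FDR 0.0512) and Cyp4f18 (1.06, FDR 0.0530) were the first outside. In males, Cyp3a44 was the last inside at FDR 0.0417, and bins at Cyp4a12a (1.07, FDR 0.0561) and Cyp1b1 followed.

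Distal intergenic bins made up 6 of the 7 female and 8 of the 11 male calls, against 72 of 130 and 84 of 158 member bins listed. The split of calls by region over all bins was not taken, so no trait of these genes is read from it. The 20 female and 28 male promoter bins of members had 0 calls in the exact test, with 1 and 5 at an unadjusted p under 0.05. At 2.72% and 4.41% called over all bins, sets of this size hold few calls, and nothing is read from the 0. The Cyp3a genes had 0 promoter bins among their 57 and 65 listed bins, and Cyp4a genes had 0 of 17 and 2 of 23. Members were intergenic in 55.4% of female and 53.2% of male bins, against 39.5% and 38.0% over all bins. The median member bin was 50.2% soft-masked repeat in females and 46.7% in males (12.8% and 12.3% over all bins). Cyp2 bins were more masked in females, with a median of 69.6%. The median GC content was 54.3% and 53.9% both for members and over all bins.

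The called bins that rose and fell differed in CpG content as a description of these bins. The 10 called higher, with the Cyp3a41a locus gained in both sexes entered once per sex, held 6 to 19 CpG (median 13.5). The 8 called lower held 3 to 13 (median 7). Per 100 bases the medians were 2.69 and 1.40. CpG was not counted over all called bins, so no trait of these genes is read from the difference.

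The age change moved with signal. The median signal was 7.57 CPM for Cyp3a, 7.36 for Cyp4a and 6.28 for Cyp4f bins in females, and 5.73, 5.39 and 4.27 CPM in males, against 6.29 and 4.29 CPM over all bins. The highest member signals were 21.7 CPM at Cyp3a11 in females and 20.5 CPM at Cyp3a41a in males. Over all bins, the median age change went from -0.29 in the lowest decile of signal to 0.36 in the highest in females, and from -0.48 to 0.46 in males. Members were frequent in the highest decile, 33 of 130 in females and 44 of 158 in males. Within it, 2 of 33 (6.06%) and 7 of 44 (15.9%) member bins were called, against 10.2% and 14.6% of all bins there. All 7 of these male calls were gains, as were 2163 of the 2170 calls over all bins of that decile.

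**Figure D4:**
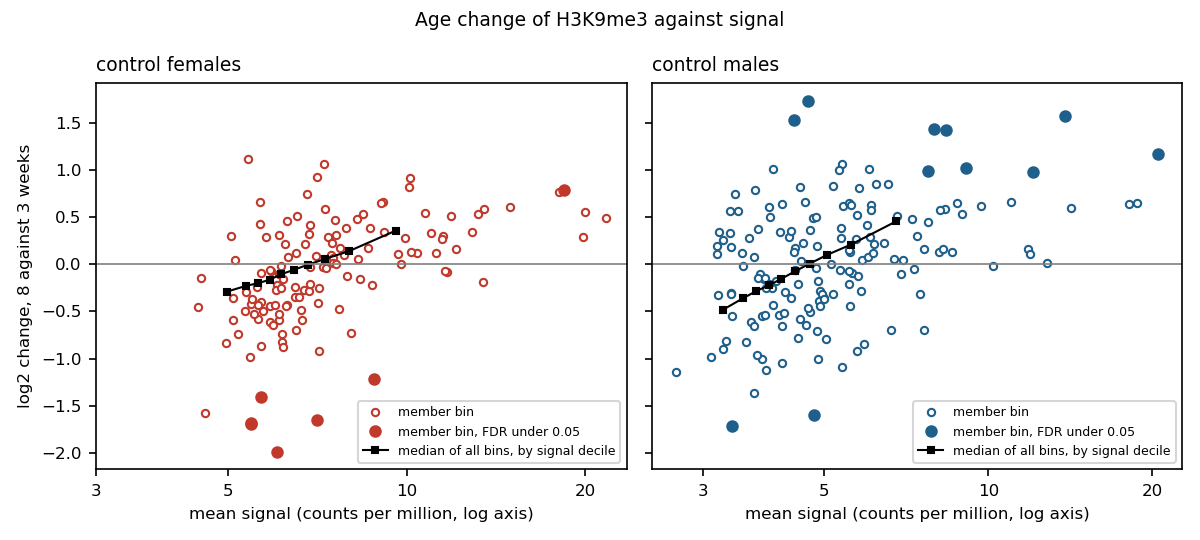
Log2 change of H3K9me3 from 3 to 8 weeks (vertical axis) against mean signal in CPM (log axis) for member bins in control females (left) and males (right), with filled points at FDR under 0.05 and black squares for the median of all bins in each signal decile. The medians climb with signal in both sexes, the female losses lie well under them, and most male gains lie above them at high signal.

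With the median change of bins of like GC content and signal taken off, the female count went from 7 to 3. All 3 were lower (Cyp3a25, the second Cyp3a41a bin and Cyp1a2). The male count went from 11 to 7, 4 higher and 3 lower. Over all bins, 1191 of 120683 were then called in females (57.9% higher) and 2501 of 148133 in males (66.1% higher). These p-values came from the shifted change divided by its approximate SE, with Benjamini-Hochberg adjustment over all bins. Each bin called before kept its direction. The female losses at Cyp3a57, Cyp3a41b and the first Cyp3a41a bin were then -1.38, -1.35 and -1.19, with adjusted p from 0.0681 to 0.121, and the male changes at Cyp4x1 and Cyp4f39 had 0.393 and 0.246. Of the 7 male bins, 5 had been called before, and the other 2 were a Cyp4b1 promoter bin (-0.70 before, -1.20 after, adjusted p = 0.0299) and a Cyp3a41a bin at chr5:145679066-145679566 (-0.70 before, -1.44 after, adjusted p = 0.00216). This Cyp3a41a bin overlaps the second one that fell in females by 32 bases. The gain shared by both sexes at Cyp3a41a was then 0.41 in females (adjusted p = 0.454) and 0.66 in males (adjusted p = 0.129). The gains at the upstream Cyp3a41a bin, Cyp4a30b, Cyp4a12a and Cyp4a12b stayed under 0.05, from 0.00142 to 0.0306.

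Repeated sequence was counted in member bins only, so no share over all bins can be set beside these counts. A 75-base window (the length of a read) that occurred elsewhere in the genome was found in 53 of 130 female and 61 of 158 male member bins, and 3 of the 7 female and 7 of the 11 male calls were among them. Without these bins, 4 female calls remained, all lower, and 4 male calls, 3 higher and 1 lower. How reads matching several places were counted is not given in the sources used here, and its part in these results was not tested.

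The sexes were compared directly at bins that overlapped by at least 50% of each. Of the 7 female calls, 4 had such a male bin, and 3 of these changed in the same direction: Cyp3a57 with a male change of -0.92 ± 0.35 (FDR 0.137), Cyp3a25 with -0.83 ± 0.47 (FDR 0.403), and the gained Cyp3a41a bin. Cyp1a2 was the exception, with a male change of 0.28 ± 0.37 (FDR 0.831). Of the 11 male calls, 6 had such a female bin, all with positive changes, from 0.00 at Cyp3a16 to 0.79 at Cyp3a41a. The difference between sexes, tested from the 2 changes and their errors over 49140 bins, was called at an adjusted p under 0.05 for 0% of bins. None of the 66 member pairs tested was called, and 5 had an unadjusted p under 0.05, as did 6.67% of all bins. The other 8 pairs, the Cyp3a16 bin gained in males among them, had no SE because a p was near 1. With their SE filled by the median of the signal decile, 6 of 74 had an unadjusted p under 0.05 and none was called. Of the 66, the one with the smallest p was Cyp1a2, where the change was higher in males by 1.50 (95% interval 0.53 to 2.46, adjusted p = 0.400), and Cyp4a30b followed at 1.13 (0.32 to 1.94, adjusted p = 0.508). The sexes shared the sign at 55 of 74 member pairs (74.3%), against 64.7% of all pairs. Both changes were positive at 36 of the 55. Members were frequent in the highest decile of signal, where the median change over all bins was positive in both sexes. Agreement at like signal was not tested. The changes had a Spearman correlation of 0.44 over these 74 bins (0.42 over all pairs). The member bins lie in a few clusters and are not independent.

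The MO comparison asked whether maternal diet altered the mark in each sex and age. No member bin was called at FDR under 0.05 or at the looser limit of an unadjusted p under 0.001 in any of the 4 exact tests, in which 0% of all bins passed the first limit and 0.211% (females at 3 weeks), 0.278% (males at 3 weeks), 0.162% (females at 8 weeks) and 0.114% (males at 8 weeks) the second. An unadjusted p under 0.05 was reached at 9 of 146 member bins in females and 15 of 167 in males at 3 weeks, against 7.72% and 8.83% of all bins. At 8 weeks it was reached at 4 of 124 and 3 of 124, against 7% and 6.5%. Member changes ranged from -1.43 to 0.85 in females and -1.0 to 0.87 in males at 3 weeks, and from -0.72 to 1.18 and -0.90 to 0.90 at 8 weeks.

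At 3 weeks the smallest p in females was at a bin between genes near Cyp4f16, with a change of -1.43 ± 0.48 (p = 0.00298 by the exact test, FDR 0.789). Next among the negative changes were an intronic bin of Cyp4f15 at -1.06 ± 0.41 (FDR 0.827) and the first Cyp3a41a bin of the age comparison at -0.95 ± 0.39 (FDR 0.850), where the control females of 3 weeks enter both values. Positive changes were led by Cyp4a12b at 0.85 ± 0.39, a Cyp1a1 promoter bin at 0.73 ± 0.33 and Cyp3a41a at 0.47 ± 0.23, with FDR from 0.906 to 0.922. In males the smallest p was at the Cyp4a30b bin gained with age, 0.87 ± 0.30 (p = 0.00387 by the exact test, FDR 0.753), followed among the positive changes by Cyp3a25 at 0.80 ± 0.32 and Cyp3a41a at 0.71 ± 0.29. The male control libraries of 3 weeks enter both the age and the MO values of that bin. Negative changes in males were led by Cyp4f16 at -1.0 ± 0.40, a Cyp1b1 promoter bin at -0.95 ± 0.40 and a Cyp4b1 promoter bin at -0.70 ± 0.31, with FDR of at least 0.819.

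At 8 weeks the leading bins in females were an exon of Cyp4f37 at 1.18 ± 0.42 (FDR 0.926) and a bin near Cyp4a31 at 1.02 ± 0.37 (FDR 0.932), and a Cyp3a41b bin at -0.67 ± 0.31 (FDR 0.991) and a Cyp1a1 promoter bin at -0.69 ± 0.34 (FDR 0.997). In males they were Cyp3a16 at 0.84 ± 0.35, Cyp4b1 at 0.90 ± 0.43 and Cyp3a41a at -0.68 ± 0.33, all with FDR 1. Of these leading bins, none passed a corrected threshold.

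**Figure D5:**
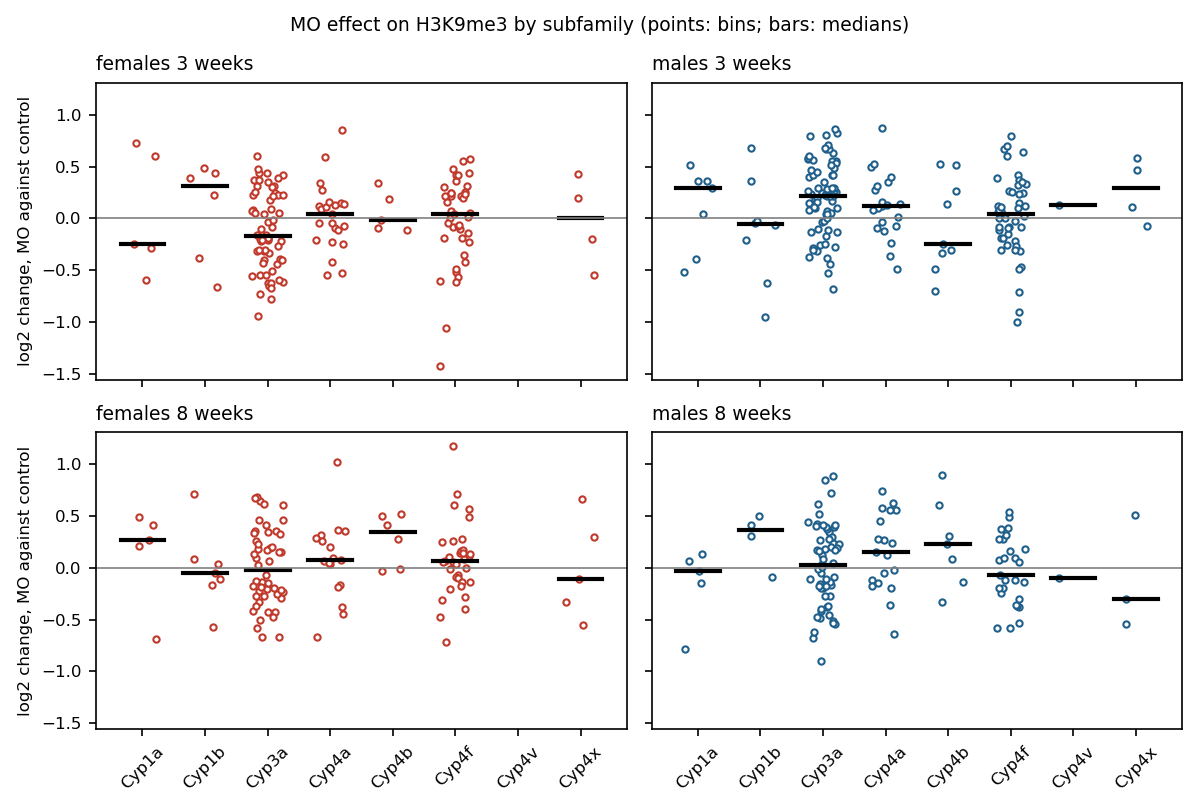
Log2 change of H3K9me3 with MO against control (vertical axes) at each member bin by subfamily, in females (left, red) and males (right, blue) at 3 weeks (top) and 8 weeks (bottom), with bars at the medians. Cyp3a points at 3 weeks lie mostly under 0 in females and above 0 in males, all within about 1 log2 unit.

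Among the larger subfamilies (Cyp3a, Cyp4a and Cyp4f), Cyp3a bins had the most one-sided values at 3 weeks. In males 53 of 71 were positive with a median of 0.22, against 52.1% of all bins and an overall median of 0.03. In females 25 of 62 were positive with a median of -0.17, against 49.2% and -0.01. With the trend in GC content and signal taken off, the medians were 0.10 (43 of 71 positive) and -0.17 (23 of 62). At 8 weeks the Cyp3a medians were 0.02 in males and -0.02 in females. Cyp4a medians were 0.12 in males and 0.04 in females at 3 weeks. Cyp2 bins had a like value in males at 3 weeks, a median of 0.20 with 65.4% of 205 positive, and in females 0.01 with 51.1% of 188. Neighbouring bins share libraries, so these counts carry no test.

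Differences of the MO effect were tested in the same way. Between sexes, 0 of 76 member pairs at 3 weeks and 0 of 62 at 8 weeks were called at an adjusted p under 0.05, with 5 and 7 at an unadjusted p under 0.05 (6.93% and 6.22% of all bins), and 0% of all bins were called in each. The Cyp3a25 bin that females lost with age had a male MO effect 1.19 above the female one at 3 weeks (95% interval 0.26 to 2.12, adjusted p = 0.635), with control libraries of 3 weeks again shared by the age and MO values. Between ages, 0 of 84 member pairs in females and 0 of 85 in males were called, with 4 and 2 at an unadjusted p under 0.05 (5.97% and 6.37% of all bins). The male Cyp4a30b bin went from 0.87 at 3 weeks to -0.19 ± 0.30 at 8 weeks, a difference of -1.07 (95% interval -1.89 to -0.24, adjusted p = 0.695). The signs of the MO effect agreed between sexes at 48.2% of member pairs at 3 weeks and 50.7% at 8 weeks (51.5% and 50.5% of all pairs). Between ages they agreed at 47 of 94 member pairs in females and 52 of 95 in males (51.3% and 50.5% of all pairs).

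Genes that act with these enzymes were taken as a list of 20 (the receptors Ahr, Nr1i2, Nr1i3, Ppara, Hnf4a and the Rxr genes with their cofactors, the electron donors Por, Cyb5a, Cyb5b and Cyb5r3, heme proteins, and the growth hormone effectors Stat5b, Bcl6 and Cux2). With age, 4 of their 125 bins were called in females, 2 in each direction, and 4 of 153 in males, 3 higher and 1 lower, shares of 3.20% and 2.61% beside 2.72% and 4.41% of all bins. Rxra alone had 31 of the 125 and 39 of the 153 bins. In females these were a promoter bin of the X-linked Pgrmc1, a heme-binding partner of P450 enzymes, at 1.41 (FDR 0.000454), and 3 bins of Rxra, the shared partner of PXR, CAR and PPARα, at 1.50 (distal intergenic, 62.2 kb from the start site), -1.40 and -1.32. In males they were 3 bins of Cux2, a repressor expressed in female liver, at 1.84 (FDR 2.96e-07), 1.27 and -1.35, and 1 bin assigned to Ahr at 1.27. No bin of the list passed FDR under 0.05 with MO. At an unadjusted p under 0.001 there was 1 of 145 bins in females at 3 weeks (Rxra, -1.75), 1 of 170 in males at 3 weeks (Rxra, 1.41), 1 of 110 in females at 8 weeks (Ppara promoter, -1.43) and 0 of 103 in males at 8 weeks by the exact test, beside 0.211%, 0.278%, 0.162% and 0.114% of all bins. The counts at p under 0.001 are too small to be read as a result. An unadjusted p under 0.05 in the exact test was reached at 12 of 145 and 30 of 170 bins at 3 weeks, in females and males. At 8 weeks it was reached at 9 of 110 and 9 of 103. The shares of all bins were 7.72%, 8.83%, 7% and 6.5%. Of the 30 in males at 3 weeks, 15 were higher with MO. The list was not tested as a set.

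The Cyp2 genes, the largest drug-metabolising family, were set beside the members. With age, 5 of 165 Cyp2 bins were called in females, 4 of them lower, and 24 of 181 in males, 19 of them higher. These were 3.03% and 13.3% of Cyp2 bins, beside 2.72% and 4.41% of all bins, of whose calls 54.9% were higher in each sex (38.9% and 54.2% on the autosomes). In settings added after the values were seen, taking off the trend left 1 Cyp2 bin called in females, lower, and 15 in males, 10 of them higher. Over all bins, 1191 of 120683 were then called in females (57.9% higher) and 2501 of 148133 in males (66.1% higher). Above the median signal the Cyp2 calls were 5 in females, 2 of them higher, and 22 in males, 20 of them higher. Of all calls above the median signal, 81.3% in females and 84.9% in males were higher. The counts of members and Cyp2 bins were not tested against each other.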

How the data were processed

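H3K9me3 ChIP-seq of 32 liver samples and 4 input samples was analysed from 6 deposited tables. Per the labels and the study's methods, the authors aligned 75-base paired reads to mm10, called broad peaks with MACS2 and removed blacklisted regions. The authors merged peaks per sex, divided them into bins, counted reads and applied an exact test of edgeR. The deposited tables give log2 fold changes and log2 CPM for 1 bin per peak (how it was chosen is not stated), p-values and the FDR (adjusted p-values). These columns hold the authors' own comparisons and no other values were used.

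Members were matched by symbol, and age changes were turned so that positive is higher at 8 weeks. Bins were called at the deposited FDR under 0.05 and, for MO, also at p under 0.001. SE was the change divided by the normal quantile of its p-value, left undefined where p was near 1, and differences were tested with these SE and Benjamini-Hochberg adjustment over all overlapping bins (Python 3.11.15, scipy 1.17.1). The deposited FDR was a median of 1.20 to 1.58 times the value recomputed over the listed bins, depending on the table. GC, soft-masking and repeated 75-base windows came from RefSeq GRCm38.p6. Steps were tested on simulated data. Depth per library was not in the tables. Where multi-bin member peaks were listed in both the age and the 3-week MO table, the same bin was given for 67 of 86 in females and 60 of 93 in males. Named bins were all age calls and, per MO comparison and direction, the 3 genes with the smallest p, beside the highest signal per subfamily. The members and lists were chosen with earlier results of these data known. Alternatives covered thresholds, adjustment, signal, GC trend, position and overlap.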

Additional observations from a re-analysis of the deposited data

How the results depend on the processing

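The age counts were 7 in females and 11 in males. At FDR under 0.01 they were 4 and 7, and at FDR under 0.1 the female count was 11. Promoters and gene bodies alone gave 1 and 3, and taking off the GC and signal trend gave 3 and 7 (0% and 57.1% higher, against 14.3% and 81.8%). Over all bins, 57.9% of female and 66.1% of male calls were higher with the trend off, against 54.9% in each sex before. Of settings chosen after seeing the data, single-bin peaks alone gave 1 and 3, and leaving out bins with a repeated window gave 4 and 4. With the adjustment recomputed over bins above the median signal, 4 of 6 female calls were higher, beside 81.3% of all female calls. That setting leaves out the female losses of lower signal. With the adjustment recomputed over the listed bins, 3 of 9 female calls were higher. Of the 18 bins called, 10 lost the call when the trend was taken off and 8 kept it, with no sign reversed. Recomputing the adjustment over the listed bins could only lower the FDR and is no check of single bins. For MO, where p under 0.001 gave 0, an unadjusted p under 0.01 gave 1 bin in either sex at 3 weeks and 2 female bins at 8 weeks. The share of all bins at p under 0.01 is not given here, and nothing is read from these counts. The other MO and difference settings also gave 0; identical coordinates left 2 member pairs for the age change and 1 for the MO effect at 3 weeks between the sexes. Why counts moved was not tested, apart from the fewer bins that the subsets hold. The SE are approximate, and leaving out single replicates was not run since values per library were not in the tables. No paired analysis was possible because the columns hold group comparisons without replicate numbers.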
